A study of Caenorhabditis elegans with 4 samples.

Results

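The arms of chromosome V carried 648 regions of REC-8 chromatin immunoprecipitation (ChIP) signal, of 7283 in the deposited list for the whole series. A region was taken as lying on the left arm when its midpoint was at or below base 6950000 of chromosome V, and on the right arm when its midpoint was above base 13900000 (WormBase build WS220). By this rule 344 regions lay on the left arm and 304 on the right arm, and the 462 regions between them formed the centre. Position alone chose the regions, and their scores, widths and support played no part in it.

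REC-8 is a meiotic kleisin, which closes the ring of cohesin. In the worm germline it holds sister chromatids together and is part of the axis on which the synaptonemal complex assembles, and at the first division it is removed from one side of the crossover and kept on the other. Autosome arms of Caenorhabditis elegans are rich in repeats and hold most meiotic crossovers, while the centres are gene-dense. The arms of V are also known for large families of chemoreceptor genes.

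All animals were hermaphrodites of the strain fem-2(b245), genotype fem-2(b245)III, kept at 20 °C. Male fate in the worm depends on fem-2, whose product is a phosphatase. The labels describe the animals as young adults with a germline, whereas the growth protocol speaks of gravid adults grown in synchronized batches. The 2 ChIP libraries were made with a polyclonal rabbit antibody to REC-8 from extracts of whole animals, in which somatic chromatin is present as well, and 2 input libraries came from the same strain and stage. No other strain, stage or treatment was compared, and the labels do not state whether each replicate had its own culture, so the spread between them may be technical. Each ChIP library had its own peak list, with 2664 peaks in replicate 1 and 3670 in replicate 2, and the read depth behind the lists is unknown. As 2 libraries of 1 condition give no test between parts of a chromosome, no p-value is given. The 95% intervals cover counting error only and take regions as independent.

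The density of REC-8 regions did not differ between the arms of V beyond counting error. The series-level list held 49.5 regions per Mb on the left arm and 43.8 on the right arm, a ratio of 1.13 (interval 0.969 to 1.32). Replicate 1 listed 124 peaks on each arm, or 17.8 per Mb on the left and 17.9 on the right. Replicate 2 listed 164 peaks on the left arm and 145 on the right, or 23.6 and 20.9 per Mb. The interval of the left-to-right ratio held 1 in each of these lists, with ratios of 0.999 (0.780 to 1.28) in replicate 1 and 1.13 (0.904 to 1.41) in replicate 2. The choice of limits matters here. Without the terminal 500 kb at each end of the chromosome the series-level ratio was 1.25 (1.06 to 1.46), and without a run of 13 right-arm regions described further on it was 1.18 (1.01 to 1.38), so that the interval then lay above 1. Leaving out a stretch of 8 left-arm regions as well gave 1.15 (0.987 to 1.35).

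Among the strongest regions the left arm held more than the right, within counting error. The upper 10.0% of the whole list by score, 728 regions with scores of 42.39 or more, included 40 left-arm regions (11.6% of that arm, Wilson interval 8.66 to 15.4%) and 25 right-arm regions (8.22%, 5.63 to 11.9%). These intervals overlap, and the ratio of the densities, 1.60, had an interval of 0.975 to 2.62. In the upper 50% of the list, in contrast, the ratio was 0.999.

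The regions covered 148 kb of the left arm, or 2.13% of its length, and 140 kb of the right arm, or 2.01%. Widths had a median of 278 bp on the left arm (lower and upper quartile 199 and 443 bp) and of 302 bp on the right arm (203 and 484 bp), with overlapping intervals of the median (258 to 305 and 275 to 326 bp). Regions of 1 kb or more numbered 25 on the left arm (7.27%) and 24 on the right (7.89%), against 5.57% over the whole list.

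Both arms were sparse relative to the rest of chromosome V. Both arms combined carried 46.6 regions per Mb against 66.5 in the centre, a ratio of 0.702 (interval 0.623 to 0.790). In replicate 1 the arms carried 17.8 peaks per Mb and the centre 23.5, a ratio of 0.761 (0.625 to 0.927). In replicate 2 they carried 22.2 and 37.7, a ratio of 0.590 (0.5004 to 0.695). The arms were thus the sparser part in all 3 lists, by an amount that differed between the replicates. Sparser arms were not particular to V. On chromosomes I to IV, cut into 3 equal parts, the ratio of arms to centres was 0.837 (0.791 to 0.886) in the series-level list. It was 0.943 (0.858 to 1.04) in replicate 1, where the interval held 1, and 0.739 (0.6825 to 0.80009) in replicate 2. Among the upper 10.0% of regions by score the ratio of arms to centre was 1.05 (0.686 to 1.60), so that no difference was detectable among these.

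The arms of V were also sparser than the arms of chromosomes I to IV, taken as the outer of 3 equal parts, with a ratio of 0.604 (0.555 to 0.657) in the series-level list, 0.597 in replicate 1 and 0.606 in replicate 2. The arms of III carried 92.3 regions per Mb, those of I 85.4, those of IV 69.1 and those of II 64.9, and the arms of X carried 65.2. When the 12 arms of all chromosomes were ordered by density in the series-level list, the right arm of V came first from the sparse end, with the left arm of II (44.8 regions per Mb) and then the left arm of V next to it. The next in order, the left arm of X, carried 61.0. The left arm of II was the sparsest of the 12 in replicate 1 (17.3 peaks per Mb) and in replicate 2 (20.4). Relative to the left arm of II, the density ratio was 1.10 (interval 0.934 to 1.31) for the left arm of V and 0.977 (0.823 to 1.16) for its right arm in the series-level list, so these lists do not order the 3 sparsest arms.

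**Figure D1:**
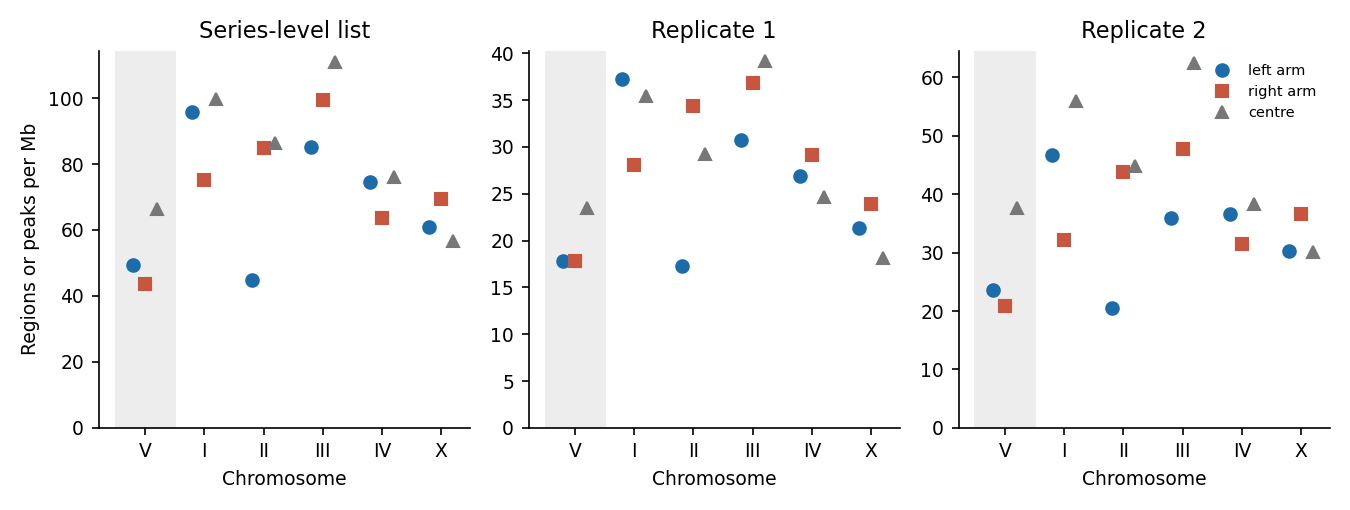
Regions or peaks per Mb (y axis) on the left arm, right arm and centre of each chromosome (x axis) in the series-level list and in each replicate list, with V shaded and placed first. The left arm of V lies at 49.5 and its right arm at 43.8 regions per Mb in the series-level list, near the left arm of II at 44.8 and below the centre of V at 66.5.

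Density was uneven within each arm, and on both arms the part next to the centre was the denser. The arms were cut at the middle of their length for this comparison, which was chosen after the values were seen. On the left arm the inner part carried 61.3 regions per Mb and the outer part 37.7, a ratio of 1.63 (interval 1.31 to 2.02). For the right arm the inner part carried 52.1 and the outer part 35.4, a ratio of 1.47 (1.17 to 1.85). Peaks of the replicates were also denser in the inner parts. The ratios were 1.34 (0.940 to 1.91) on the left arm and 1.38 (0.971 to 1.97) on the right arm in replicate 1, and 1.73 (1.26 to 2.38) and 1.69 (1.21 to 2.36) in replicate 2. The intervals from replicate 1 include 1.

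The same split of the other chromosomes gave inner-to-outer ratios of 1.68 on the left arm of III, 1.58 on the right arm of IV and 1.43 on the right arm of I. The ratio was below 1 on the right arm of II (0.886) and on both arms of X (0.946 on the left and 0.934 on the right). The denser inner parts of V were therefore matched on some arms of other autosomes and not on others.

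The densest stretch of 500 kb on the left arm was V 6000001 to 6500000, with 56 regions, of which 17 overlapped peaks of both replicates. Replicate 1 listed 19 peaks there and replicate 2 listed 29. On the right arm the densest stretch, V 14500001 to 15000000, held 42 regions, 9 of them in both replicates, with 16 peaks in replicate 1 and 23 in replicate 2. Over the 13 complete stretches of each arm the number of regions had a median of 19 on the left (range 12 to 56) and 17 on the right (11 to 42).

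A second crowded stretch interrupted the sparse outer part of the left arm. V 1000001 to 1500000 held 42 regions, with 22 peaks in replicate 1, the most of any complete stretch on either arm, and 21 in replicate 2. On the right arm, the terminal 500 kb up to the last peak (V 20345976 to 20845975) held 40 regions, with 12 peaks in replicate 1 and 20 in replicate 2. The terminal 500 kb of the left arm held 15 regions, with 6 peaks in replicate 1 and 9 in replicate 2. In all 3 lists the right end was thus the more densely occupied of the chromosome's ends. These end and outer stretches were picked out after their values were seen.

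By number of series-level regions, the sparsest stretch of the left arm was V 2000001 to 2500000, with 12 regions, 2 peaks in replicate 1 and 5 in replicate 2. That of the right arm was V 19000001 to 19500000, with 11 regions, 6 peaks in replicate 1 and 1 in replicate 2. Also sparse, and named after its values were seen, V 18000001 to 18500000 held 12 regions, none of them in both replicates, with 2 peaks in replicate 1 and 0 in replicate 2. On the left arm, V 3000001 to 3500000 held 14 regions but only 1 peak in replicate 1 and 2 in replicate 2. Each is the lowest count of a complete left-arm stretch in its replicate list. Of the 14 regions, 8 lay under the same peak of replicate 1. This stretch was also named after its values were seen.

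**Figure D2:**
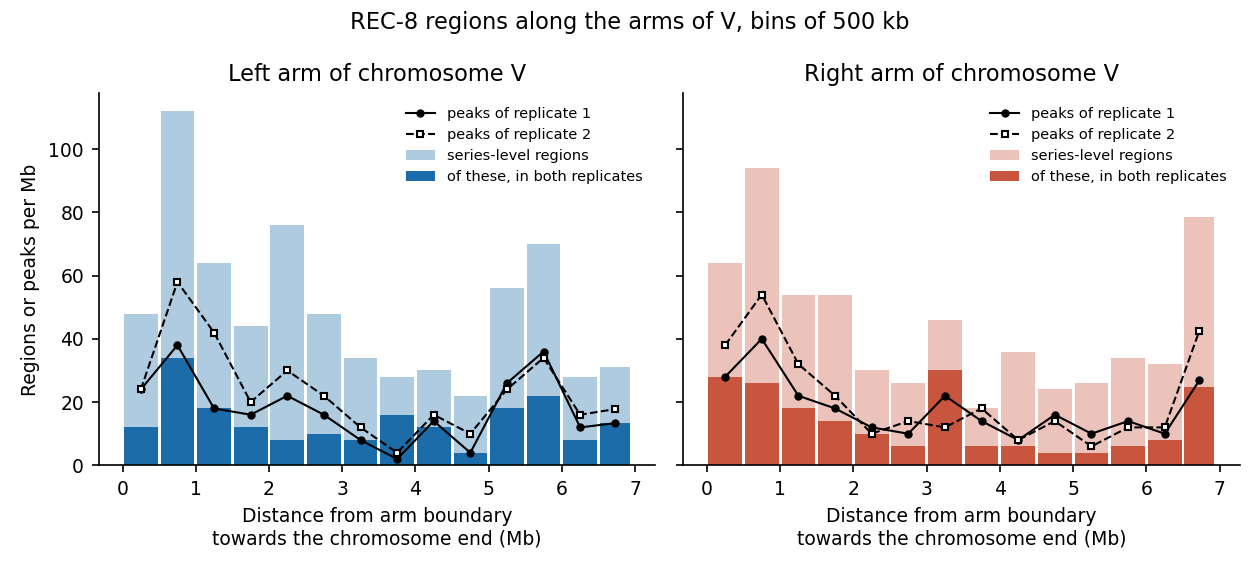
Series-level regions per Mb (pale bars), those found in both replicates (dark bars) and peaks of each replicate list per Mb (lines), in bins of 500 kb against distance in Mb from the arm boundary towards the chromosome end, for the left and the right arm. Density is highest in the second bin from the boundary on both arms (112 and 94.0 regions per Mb), and the outermost bin of the right arm reaches 78.5 against 31.1 at the end of the left arm.

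Regions stood in groups with long empty stretches between them. The gap from one region to the next had a median of 4.10 kb on the left arm and 5.75 kb on the right arm, and upper quartiles of 24.8 and 29.2 kb. Of the gaps, 130 of 343 on the left arm (37.9%) and 117 of 303 on the right arm (38.6%) were 2 kb or shorter. Runs of regions joined by such gaps took in 190 left-arm regions (55.2%) and 168 right-arm regions (55.3%). In the centre of V, 57.6% of the regions lay in such runs, and on the arms of I to IV 59.6%.

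Gaps over 100 kb numbered 10 on the left arm and 19 on the right arm. The centre of V had 6, and the arms of I to IV together had 39 over a length of 41.1 Mb, against 29 over the 13.9 Mb of the arms of V. The longest empty stretch lay on the left arm, from V 2890876 to 3195168 (304 kb), where replicate 1 listed 1 peak and replicate 2 listed 0. The next on that arm ran from V 1477219 to 1743623 (266 kb), with 2 peaks in replicate 1 and 0 in replicate 2, and the last of the 3 from V 3803607 to 3989183 (186 kb), with 0 peaks in either list. On the right arm the longest were V 16024628 to 16216988 (192 kb) and V 18160107 to 18346134 (186 kb), each with 0 peaks in both replicates, and V 19194507 to 19365969 (171 kb), with 1 peak in replicate 1 and 0 in replicate 2. A list that ends at a minimum score cannot show weaker signal inside these stretches, and mappability was not tested.

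Support by both replicate lists was near the level of the whole genome on both arms. On the left arm 97 of 344 regions overlapped, by 1 bp or more, a peak of both replicates (28.2%, Wilson interval 23.7 to 33.2%). The right arm had 94 of 304 (30.9%, 26.0 to 36.3%), against 29.1% over all 7283 regions. Both intervals hold the background.

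At least 1 replicate supported 194 left-arm regions (56.4%) and 160 right-arm regions (52.6%), against 55.4% over the whole list. Replicate 1 supported 136 on the left (39.5%) and 127 on the right (41.8%), where the background was 36.8%. Replicate 2 supported 155 on the left (45.1%) and 127 on the right (41.8%, interval 36.4 to 47.4%), where the background was 47.7%, just above the interval of the right arm. No peak of either list overlapped 150 left-arm regions (43.6%) and 144 right-arm regions (47.4%), against 44.6% overall.

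Fewer regions of the right arm than of the centre of V had replicate 2 as their only support. Replicate 2 alone held 58 left-arm regions (16.9%, 13.3 to 21.2%) and 33 right-arm regions (10.9%, 7.83 to 14.9%), against 104 in the centre (22.5%, 18.9 to 26.5%) and 18.6% over the whole list. The interval of the left arm overlapped that of the centre and held the background, while that of the right arm lay below both. Replicate 1 alone held 39 left-arm regions (11.3%, 8.41 to 15.1%) and 33 right-arm regions (10.9%, 7.83 to 14.9%), against 39 in the centre (8.44%, 6.24 to 11.3%) and 7.65% over the whole list, which is below the interval of either arm. On I to IV, regions in replicate 2 alone made up 15.2% of the arm regions and 22.8% of the centre regions, and those in replicate 1 alone 8.20% and 5.70%.

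**Figure D3:**
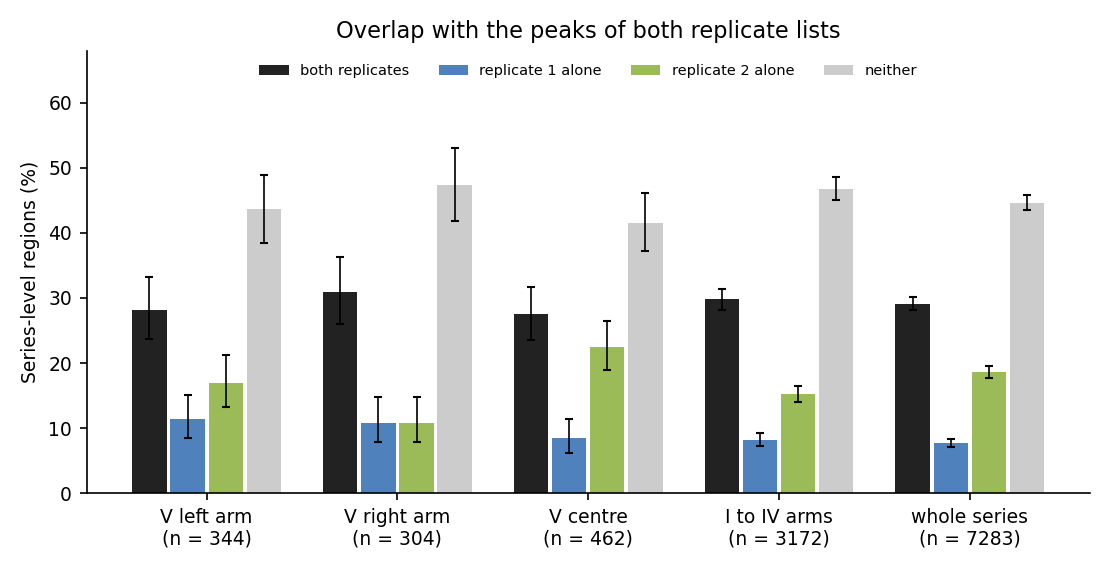
Share of series-level regions in percent (y axis) that overlapped peaks of both replicates, of replicate 1 alone, of replicate 2 alone or of neither, by part of the genome (x axis), with 95% Wilson intervals as error bars. The share in both replicates is 28.2% on the left arm and 30.9% on the right arm of V, close to 29.1% over the whole list.

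Support followed the score. The series holds only these 2 ChIP libraries, so series-level scores and replicate peaks are not independent, and support is no separate check of the score. The whole list was cut at scores of 4.61, 7.86 and 16.84 into 4 classes of about equal size. In the lowest class 3 of 88 left-arm regions (3.41%) and 2 of 75 right-arm regions (2.67%) had both replicates, and in the next 5 of 96 (5.21%) and 5 of 69 (7.25%). In the class below the top it was 16 of 75 on the left (21.3%) and 24 of 83 on the right (28.9%). In the top class it was 73 of 85 on the left (85.9%, interval 76.9 to 91.7%) and 63 of 77 on the right (81.8%, 71.8 to 88.8%), against 89.4% of the top class of the whole list. On both arms the share was highest in the top class. In the second class all 5 on the left arm and 4 of the 5 on the right came from 1 stretch on each arm, both described further on. The same stretches gave 2 of the 16 on the left and 9 of the 24 on the right in the next class. Without 8 regions at V 3434576 to 3441191, the second class of the left arm had 0 of 91 in both replicates (Wilson upper limit 4.05%) and the next 14 of 73 (19.2%). Without the run of 13 regions, the second class of the right arm had 1 of 65 (1.54%) and the next 15 of 74 (20.3%), against 3.67% and 21.9% over the whole list. Leaving these stretches out was an alternative added after the values were seen.

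The median series-level score was 7.24 on the left arm (interval of the median 6.57 to 8.15) and 8.10 on the right arm (7.24 to 9.05), against 7.44 in the centre of V and 7.86 over the whole list. Among the regions in both replicates the order was turned round, with a median of 32.1 on the left arm (26.3 to 44.9) and 23.3 on the right (19.3 to 28.2). Regions in neither list had medians of 5.02 on the left and 5.01 on the right. The intervals of the arms overlapped in each of these 3 comparisons.

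**Figure D4:**
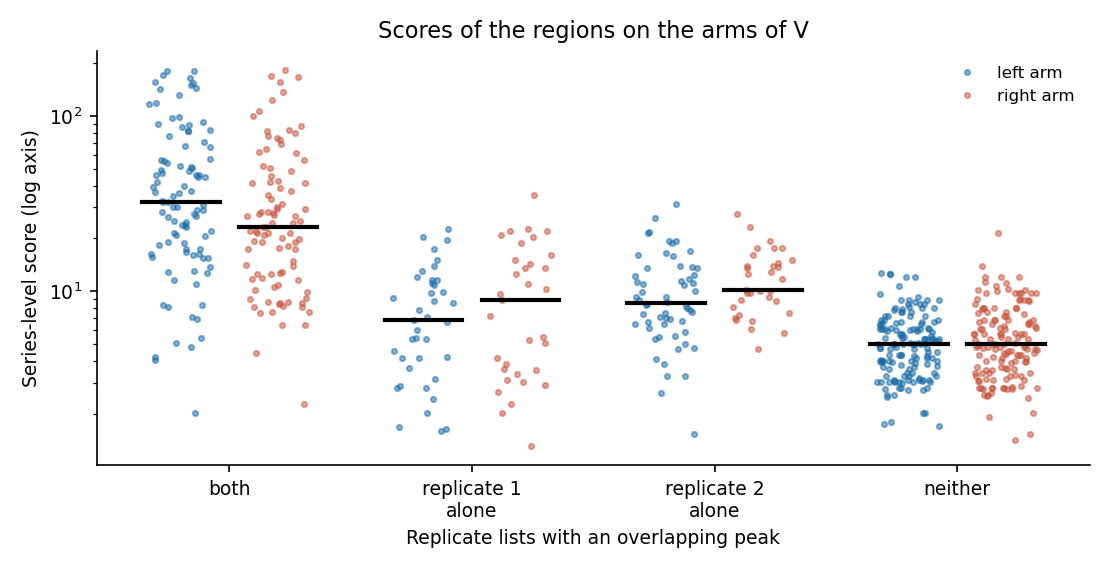
Series-level score (y axis, log) of each region on the left and right arms of V, by the replicate lists that held an overlapping peak (x axis), with black lines at the medians. Regions in both replicates have medians of 32.1 on the left arm and 23.3 on the right, and regions in neither have medians near 5 on both arms.

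The inner parts held 7 of the 10 highest-scoring regions of the left arm and 8 of the 10 of the right arm. Of all regions, 61.9% on the left arm and 59.5% on the right lay in the inner parts. Of those in the upper 10% of the whole list, 25 of 40 on the left arm (62.5%, interval 47.0 to 75.8%) and 21 of 25 on the right (84.0%, 65.3 to 93.6%) did, so that on the left arm the share was near that of all regions. All 20 of the highest were found in both replicates. The 10 highest had series-level scores from 131.68 to 179.39 on the left arm and from 83.22 to 183.4 on the right arm. The 10 of the left arm all scored above the 5 lowest of the right-arm set.

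On the left arm, V 6299523 to 6300258 scored highest, at 179.39 in the series-level list, with 2100.75 in replicate 1 and 1679.04 in replicate 2. A cluster of strong regions followed in the outer part of the arm. V 1254077 to 1255483 (series-level score 179.31) reached 3100 in both replicates, a value at which scores of many peaks tie. Beside it lay V 1255939 to 1256471 (163.97, with 2110.66 in replicate 1 and 1416.47 in replicate 2) and V 1256553 to 1257776 (153.01, with 2548.34 and 1773.04). These 3 neighbours were the only members of the 10 highest of the left arm that lay in its outer part, and they fall in the crowded stretch from V 1000001 to 1500000.

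The inner part of the left arm held V 6091407 to 6092098 (series-level score 171.32), at 3100 in both replicates, and V 6071110 to 6072885 (155.09), at 3100 in replicate 1 and 3015.35 in replicate 2. The remaining 4 were V 6587471 to 6588567 (149.82), V 5009195 to 5010962 (143.41), V 5639760 to 5641401 (142.94) and V 4053716 to 4054210 (131.68). Replicate scores of these 4 ran from 1091.06 to 2338.53 in replicate 1 and from 769.68 to 1595.21 in replicate 2. Scores of the replicate lists are not ranked against each other here, as the depth behind them is unknown.

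On the right arm, V 15295863 to 15297074 had the highest score of either arm, 183.4, at rank 10 of the whole series-level list, with 2185.23 in replicate 1 and 2098.29 in replicate 2. It was followed by V 14124002 to 14124965 (169.13, with 1988.25 in replicate 1 and 1677.05 in replicate 2), V 15001951 to 15002761 (166.67, with 2073.59 and 1929.79) and V 14155419 to 14156659 (156.7, with 2178.51 and 1663.01). V 15320650 to 15323230 (135.98) was the only one of the 10 at 3100 in both replicates.

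The other 5 were V 16244613 to 16245559 (122.87), V 13907089 to 13909817 (106.46), V 15511541 to 15512082 (99.32), V 20478950 to 20479648 (87.36) and V 18967564 to 18967932 (83.22). The last pair were the only ones in the outer part of the right arm. V 20478950 to 20479648 scored 586.49 in replicate 1 and 685.53 in replicate 2.

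Wider regions scored higher over each arm as a whole, and 19 of the 20 highest-scoring regions were wider than the upper quartile of their arm. Spearman's rho of width with series-level score, given as a description across regions of 1 list, was 0.656 over the 344 left-arm regions and 0.647 over the 304 right-arm regions. Over all 7283 regions it was 0.652, so this relation was not particular to the arms of V. Among the regions in both replicates it was much lower, 0.259 over 97 on the left arm and 0.141 over 94 on the right, against 0.261 over 2121 in the whole list. The 3 widest regions of each arm were nevertheless not among its 10 highest by score. The widest region of the left arm, V 5838644 to 5844168 (5525 bp), had a series-level score of 46.04, with 3100 in replicate 1 and 347.87 in replicate 2, where 4 separate peaks covered what was 1 peak in replicate 1. The next was V 723398 to 728290 (4893 bp), with 97.93 in the series-level list and 3100 in both replicates, followed by V 6514871 to 6517962 (3092 bp), with 16.62. Replicate 1 had 1 peak in the former and 2 in the latter, and replicate 2 had 2 and 4.

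The widest of the right arm were V 20407594 to 20412683 (5090 bp, series-level score 17.72), V 16592193 to 16595607 (3415 bp, 22.03) and V 14830114 to 14833362 (3249 bp, 31.48). Their highest replicate scores were 2022.22, 1337.64 and 1483.62 in replicate 1, and 276.21, 367.76 and 764.63 in replicate 2. Replicate 2 split each of these 3 regions into 4 peaks, where replicate 1 had 3 peaks in the first and 1 in each of the others.

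A stretch of about 12 kb on the right arm scored high in both replicates and low in the series-level list. From V 17120123 to 17132085, 11 neighbouring regions had series-level scores between 6.45 and 10.19 (median 8.19), which placed them between ranks 2888 and 4307 of 7283. The replicate lists had 2 broad peaks there. In replicate 1, V 17119882 to 17126684 (6803 bp) scored 1925.18 and V 17128027 to 17132198 (4172 bp) scored 1624.3, which are ranks 150 and 171 of 2664. In replicate 2, V 17119935 to 17126653 (6719 bp) scored 2529.71 and V 17128125 to 17132175 (4051 bp) scored 1420.54, which are ranks 69 and 134 of 3670. Bounds of both peaks differed little between the replicates, while the series-level list cut the first into 6 regions and the second into 5.

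This pattern was rare in the genome. A set of 232 series-level regions overlapped peaks in the upper 10% of both replicate lists (scores of at least 983 in replicate 1 and 709.862 in replicate 2), and 12 of these were not in the top class by series-level score. The stretch on the right arm of V held 11 of the 12, and the other lay on an arm of I to IV. The limit of 10% was set after the values were seen, and the 11 regions share 2 peaks per replicate, so they are not 11 independent sites. A stretch on the left arm, outside this set, also had many low-scoring series-level regions under broad replicate peaks. Replicate 1 had a peak of 6616 bp at V 3434576 to 3441191 that scored 980.72, just under the limit, and replicate 2 one of 4823 bp at V 3434574 to 3439396 that scored 580.86, well under it. The peak of replicate 1 spanned 8 series-level regions with scores between 2.01 and 8.35.

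The stretch on the right arm belonged to the longest run of that arm, 13 regions from V 17115545 to 17132085 with gaps of at most 2 kb, all in both replicates. The longest run of the left arm also had 13 regions, from V 6000238 to 6012646. It had scores of 3.02 to 39.4 (median 4.76), and 1 of its regions was in both replicates. Runs with as many regions thus differed in support, with 13 regions in both replicates on the right arm and 1 on the left.

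Regions that share a replicate peak are not separate pieces of support. On the left arm 30 of the 136 regions supported by replicate 1 shared a peak with another region, and 13 of the 155 supported by replicate 2 did. The counts were 28 of 127 and 15 of 127 on the right arm, and 23 of 166 and 16 of 231 in the centre of V. A count over the whole list is not given here. Counting regions linked by a replicate peak once, an alternative added after the values were seen, both replicates supported 89 of 322 on the left arm (27.6%) and 82 of 285 on the right (28.8%). Over the whole list the same count gave 2018 of 6982 (28.9%), so both arms were near that level. Without the 8 regions at V 3434576 to 3441191 the left arm had 26.5% of its regions in both replicates, and without the run of 13 regions the right arm had 27.8%. By outer and inner part, the share in both replicates among units counted this way was 24.6% in the inner and 32.8% in the outer part of the left arm. For the right arm it was 33.1% in the inner and 22.7% in the outer part, and the intervals overlapped within each arm.

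The replicates ranked the regions of each arm alike. Among the 97 left-arm regions in both lists, Spearman's rho between the scores of replicate 1 and replicate 2 was 0.729, and among the 94 on the right arm it was 0.736. These are correlations across regions that share libraries, input and neighbouring peaks, and they are given as a description. The series-level score followed the replicates less closely on the right arm. There its rho was 0.305 with replicate 1 and 0.282 with replicate 2, against 0.539 and 0.606 on the left arm and 0.712 and 0.762 in the rest of the series. Without the run of 13 regions the right-arm values were 0.669 and 0.729 over 81 regions. Without the 8 regions at V 3434576 to 3441191 the left-arm values were 0.793 and 0.770 over 89 regions. These stretches were left out after the values were seen. They pair low series-level scores with strong replicate peaks, so leaving them out raises rho by construction. Nothing was left out of the rest of the series, so the trimmed values are not comparable with those given for it. The median series-level score of the right-arm regions in both replicates was 27.2 (22.0 to 33.4) without the run. That of the left-arm regions was 36.8 (28.8 to 47.2) without the 8 regions, and these intervals overlap.

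**Figure D5:**
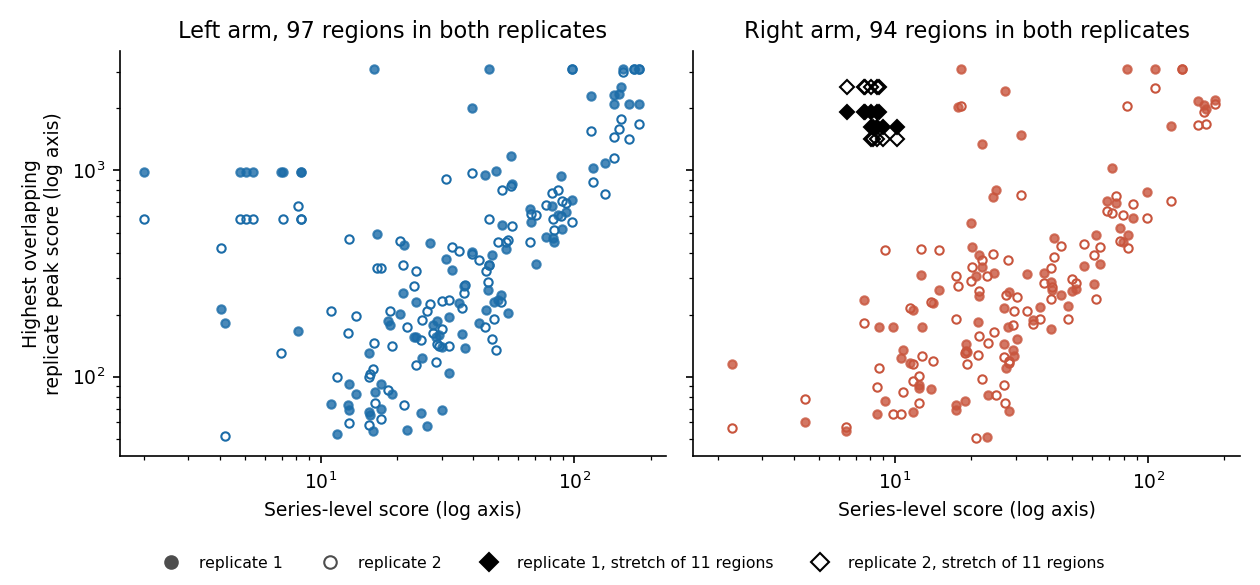
Highest score of the overlapping peaks of replicate 1 (filled) and replicate 2 (open; y axis, log) against the series-level score (x axis, log) for the 97 left-arm and 94 right-arm regions in both replicates. The 11 regions of the stretch from V 17120123 to 17132085 are black diamonds and lie at replicate scores of 1420.54 to 2529.71 with series-level scores of 6.45 to 10.19.

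Most peaks of each replicate on the arms were found in the other replicate too. Of the peaks of replicate 1, 91 of 124 on the left arm (73.4%, interval 65.0 to 80.4%) and 88 of 124 on the right arm (71.0%, 62.4 to 78.2%) overlapped a peak of replicate 2, against 79.3% of the whole list. The interval of the right arm lay below that share, as did that of both arms combined (72.2%, 66.3 to 77.4%), and the centre of V had 81.6%. Of the peaks of replicate 2, 104 of 164 on the left arm (63.4%, 55.8 to 70.4%) and 100 of 145 on the right arm (69.0%, 61.0 to 75.9%) overlapped a peak of replicate 1, against 61.1% of the whole list. Merged, they gave 91 sites on the left arm and 87 on the right, or 13.1 and 12.5 sites per Mb.

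Median peak scores of the arms lay near those of the whole lists, and those of the centre of V were lower. The median in replicate 1 was 186 on the left arm (interval 155 to 233) and 172 on the right arm (135 to 236), against 139 in the centre of V (124 to 191) and 171 over the whole list, and the intervals overlapped. In replicate 2 it was 175 on the left arm (142 to 208) and 145 on the right arm (119 to 191), against 113 in the centre of V (101 to 126) and 151 over the whole list. There the intervals of the left arm and the centre did not overlap. On I to IV the medians were 178 on the arms and 164 in the centres in replicate 1, and 155 and 148 in replicate 2.

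The right arm also held most of the arm peaks that the series-level list lacks. On the left arm 2 of 124 peaks of replicate 1 and 4 of 164 of replicate 2 met no series-level region, and on the right arm 11 of 124 (8.87%, interval 5.03 to 15.2%) and 12 of 145 (8.28%, 4.80 to 13.9%) did. Over the whole lists 60 of 2664 peaks of replicate 1 (2.25%) and 105 of 3670 of replicate 2 (2.86%) met none, which is below the intervals of the right arm. The centre of V had 3 of 163 (1.84%, 0.628 to 5.27%) and 12 of 262 (4.58%, 2.64 to 7.83%), with intervals that overlap those of the right arm. Shares on the arms of I to IV were 2.93% in replicate 1 and 2.66% in replicate 2. Sites found by both replicates and missing from the series-level list numbered 0 of 91 on the left arm, where 3 counts of the total allow a share of up to 3.30% and the Wilson upper limit is 4.05%, and 4 of 87 on the right arm (4.60%, interval 1.80 to 11.2%), against 19 of 2059 over the genome (0.923%). The 4 were V 17428749 to 17429072, V 18566343 to 18566656, V 18639672 to 18639920 and V 19528557 to 19528866, all in the outer part of the arm. Their scores ran from 77.64 to 122.5 in replicate 1 and from 106.93 to 136.81 in replicate 2, which is below the median of each list. Of the 19 sites over the genome, 14 lay on the arms of I to IV, among 923 shared sites there (1.52%, interval 0.906 to 2.53%). That interval overlaps the one of the right arm of V. The centres of I to IV had 0 of 535 (Wilson upper limit 0.713%). Why the lists differ was not tested.

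At the boundaries that define the arms, the last left-arm regions were V 6941361 to 6941510 (series-level score 4.15) and V 6942497 to 6942746 (2.03), both in replicate 1 alone. Just outside lay V 6984569 to 6985042 (76.31, in both replicates) and V 6998416 to 6998606 (3.7, in neither). The first right-arm regions were V 13906209 to 13906453 (8.89, in neither) and V 13907089 to 13909817 (106.46, in both), and just outside lay V 13892697 to 13893007 (8.36, in replicate 2 alone) and V 13881995 to 13882726 (160.78, in both).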

How the data were processed

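REC-8 ChIP-seq peak lists were used as the authors deposited them, 1 for each of the 2 ChIP libraries and 1 for the series. Per the submitters' processing notes, BWA and the build ce10 were used. Per the file headers, coordinates are in WormBase build WS220. The files' source column names MACS for the replicate lists and MACS v2 for the series-level list. The labels and headers state neither the settings nor how the input libraries entered or whether reads were pooled. Each peak carries the authors' deposited score, on an unstated scale that differs between the series-level and the replicate lists, and it was used only within a list. The lists end at scores of 1.30, 50.05 (replicate 1) and 50.02 (replicate 2), and depth is unknown.

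Overlaps of 1 bp or more, densities, gaps and quantiles were computed with Python 3.11.15, numpy 2.4.6, pandas 2.3.3 and scipy 1.17.1. V was taken to end at its last peak, base 20845975, and other chromosomes were cut into 3 equal parts of the length so defined. Shares have 95% Wilson intervals, medians binomial ones, and density ratios the interval that the Wilson interval of the counts gives. Overlap and interval code was tested on simulated data. Named regions were, for each arm, the 10 highest by score, the 3 widest, the 3 longest gaps, the longest run, the densest and sparsest 500 kb, and those next to the boundaries. The regions and comparisons were chosen with earlier results of these data known. No genome of build WS220 was used here, so no gene or sequence is assigned.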

Additional observations from a re-analysis of the deposited data

How the results depend on the processing

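No paired analysis was possible because only the ChIP group has peak lists, so that among groups with lists no groups share replicate numbers. The input libraries carry the same replicate numbers as the ChIP libraries but have no lists. Ratios within each replicate list compare parts of the genome within 1 library, and with 2 libraries they are given as values. Of 62 alternative values, 45 stayed inside the 95% interval of the reported one. From single replicate lists, the left-to-right density ratio was 0.999 to 1.13, the ratio of the arms to the centre 0.590 to 0.761, and that of the arms of V to the arms of I to IV 0.597 to 0.606. With the upper 10% of regions by score, the left-to-right ratio was 1.60 and the arm-to-centre ratio 1.05. Support by 1 replicate was 39.5 to 45.1% on the left arm and 41.8% by either replicate on the right, and support by both in the upper 50% by score was 55.6% on the left and 54.4% on the right. Median scores of regions in 1 replicate's list were 18.4 to 20.8 on the left arm and 17.7 to 19.1 on the right, and for regions in both 32.1 and 23.3. Joining regions at gaps of 1 kb or less gave medians of 8.68 and 10.1. The regions that enter these values differ by construction. Requiring 50% of a region to be covered gave support of 25.6% on the left and 26.6% on the right. Shares of the whole list under this rule and in the upper 50% are not given here. The share of the whole list at an overlap of 1 bp is no background for either. The left-to-right density ratio had an interval above 1 without the terminal 500 kb (1.25, 1.06 to 1.46), without the run of 13 regions (1.18, 1.01 to 1.38; added after the values were seen) and with both boundaries 500 kb nearer the ends (1.18, 1.0004 to 1.38). Depth is unknown and limits all of these counts.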

Other observations

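The highest-scoring regions that lacked a replicate were picked out after their values were seen. The highest-scoring region with no peak in either replicate was V 4143126 to 4143437 (series-level score 12.74) on the left arm and V 20744301 to 20744505 (21.59) on the right arm. The highest with replicate 1 alone was V 4890011 to 4890349 (22.71) on the left arm and V 16547211 to 16548658 (35.41, with 771.56 in replicate 1) on the right arm. The highest with replicate 2 alone was V 4844648 to 4844905 (31.41) on the left arm and V 20728876 to 20729227 (27.65) on the right arm. At the other end, V 92 to 303, at the left end of the chromosome, had a series-level score of 4.03, with 212.58 in replicate 1 and 418.91 in replicate 2.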
